A study of Mus musculus with 4 samples.

Results

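The Egr, Ier and Klf response genes are 10 mouse genes: Egr1, Egr2 and Egr3, Ier2, Ier3 and Ier5, and Klf2, Klf4, Klf6 and Klf10. They are examined here for the peaks of a ChIP-seq study of TEAD1 in cardiac fibroblasts of newborn mice. A peak was counted for a gene when its summit, the position of highest ChIP signal, lay in the annotated span of the gene or within 50 kb of either end. By this rule 42 of the 21285 peaks in list 1 and 38 of the 21218 peaks in list 2 belonged to the 10 genes, and no peak was counted for more than 1 of them. ChIP-seq was done in cells overexpressing TEAD1 (OE-TEAD1) and in cells carrying the overexpression negative control (OE-NC), with 1 ChIP library and 1 input library each. Input is sonicated chromatin taken before the immunoprecipitation. The labels do not say which peak list belongs to which condition, so no effect of overexpression is given, and with 1 library behind each list differences between them could not be set against replicate error. The sources used here name neither the construct nor the antibody, and do not say whether the cells came from several litters. RNA was not measured in these data, so the response of the genes themselves is outside them. Likewise the labelled cell type could not be checked against marker expression.

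EGR, IER and several KLF genes are immediate-early genes, switched on within minutes by serum, growth factors or stress without new protein synthesis. EGR proteins are zinc-finger activators whose promoters hold CArG boxes, the letters recognised by serum response factor. IER proteins are short-lived regulators of survival and stress responses, and KLF proteins are zinc-finger factors that bind GC-rich DNA. TEAD1 binds DNA through the letters GGAATG and works with the Hippo pathway coactivators YAP and TAZ, which also respond to serum and to mechanical load.

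Most of the peaks lay at Ier3, Klf6, Ier5 and Klf10. Ier3 had 10 peaks in list 1 and 9 in list 2, and Klf6 had 9 in each. Ier5 had 7 and 8, Klf10 6 and 5, and Klf4 3 and 4. Egr1 had 4 and 2, all within 2 kb of the gene and weak. Egr2 had 2 peaks and Egr3 had 1, both in list 1 alone, Ier2 had 1 in list 2 alone, and Klf2 had none in either list. At least 1 peak was thus found for 8 of 10 genes in list 1, where 57.5% of all 21900 protein-coding genes had one, and for 7 of 10 in list 2, where 58.2% had one. All 10 genes are short, with spans of 1.2 to 9.25 kb, and among the 11862 protein-coding genes of at most 20 kb the shares were 49.2% and 49.9%. A peak in both lists was found for 6 of 10 genes, against 51.6% of protein-coding genes of any length.

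**Figure D1:**
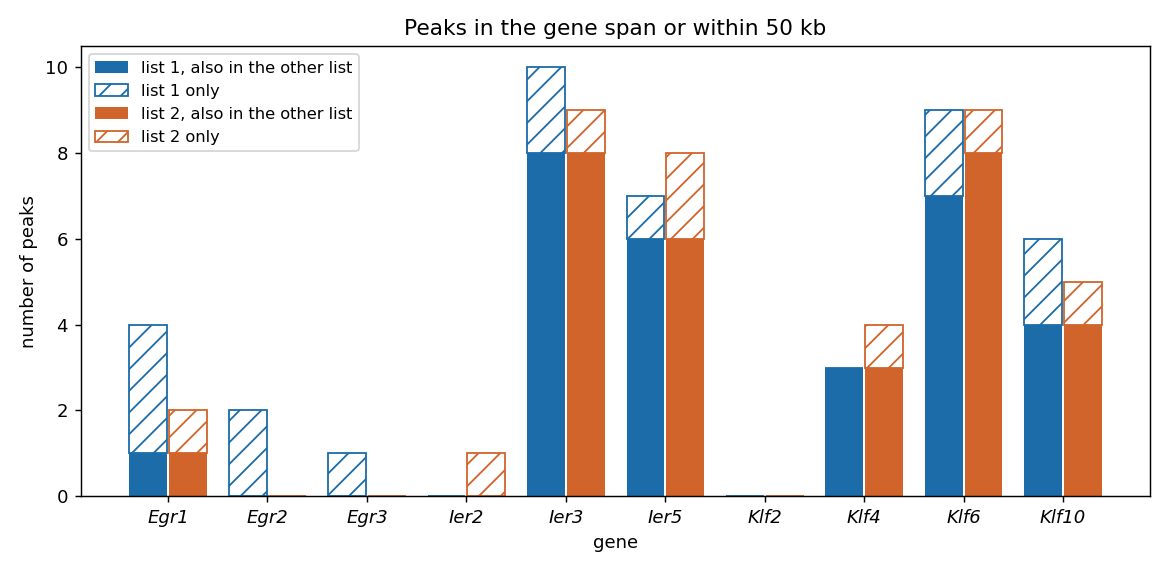
Number of peaks (y axis) counted for each gene (x axis) in list 1 (blue) and list 2 (orange). Filled bars are peaks that overlap a peak of the other list by at least 1 bp, and hatched bars are peaks of 1 list only. Ier3 and Klf6 reach 9 or 10 peaks in each list, and Klf2 has none.

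The number of peaks differed widely between the genes. At least 6 peaks were counted for 4 genes in list 1 (Ier3, Klf6, Ier5 and Klf10), a number reached by 6.06% of protein-coding genes, and for 3 in list 2 (Ier3, Klf6 and Ier5), where it was reached by 5.67%. At least 9 peaks were counted for Ier3 and Klf6 in both lists, against 1.93% of protein-coding genes in list 1 and 1.84% in list 2. The cuts of 6 and 9 fall on the peak numbers of Klf10 and Klf6 themselves, and these shares were not counted for short genes alone. The median was 3.5 peaks per gene in list 1 and 3 in list 2, and over all protein-coding genes it was 1 in both. Over protein-coding genes of at most 20 kb it was 0 in both. The 10 genes were chosen with earlier results of these data known, so these shares describe them and test nothing.

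**Figure D2:**
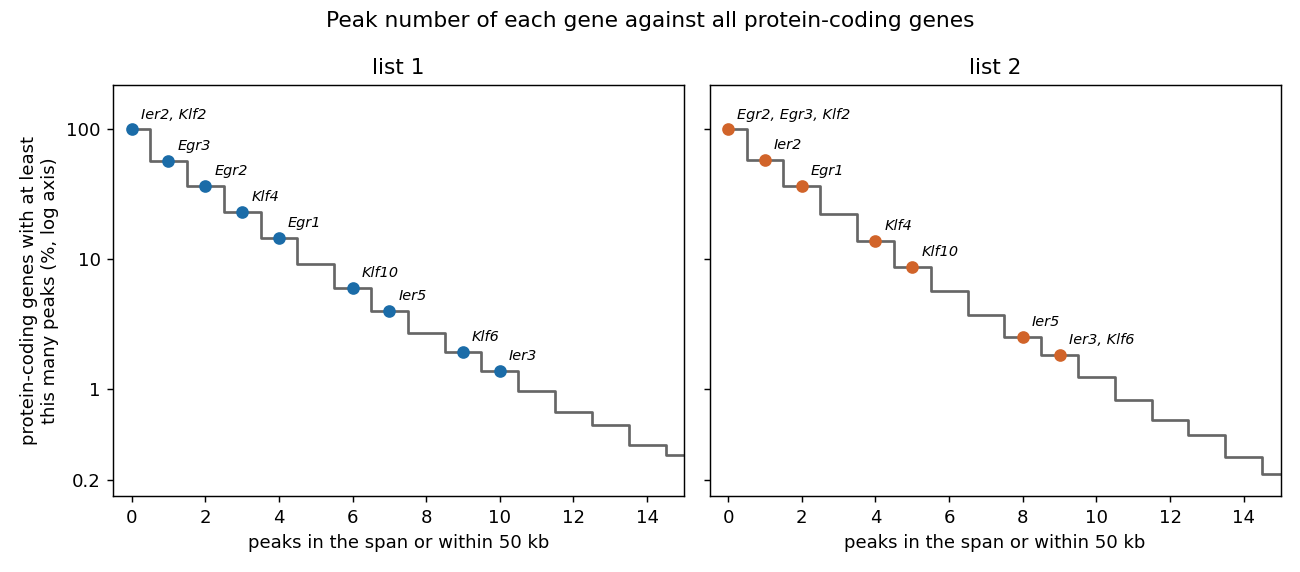
Share of all protein-coding genes (y axis, percent, log axis) with at least the number of peaks on the x axis in the gene span or within 50 kb, for list 1 (left) and list 2 (right). Points mark the 10 genes on that curve. Klf2 sits at 0 peaks in both panels, and Ier3 and Klf6 sit at the lower right, where 1.38% to 1.93% of protein-coding genes have as many peaks.

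The peaks reached across the window but were denser in and near the genes. In list 1, 6 summits lay inside a gene, 4 within 1 kb outside it, 6 between 1 and 10 kb away and 26 between 10 and 50 kb. In list 2 the numbers were 3, 4, 6 and 25. The zone beyond 10 kb makes up 76.3% of the base pairs of the windows and held 61.9% of the peaks in list 1 and 65.8% in list 2. Per 100 kb there were 3.25 and 3.13 peaks in that zone, and 6.43 and 5.22 in the genes and within 10 kb of them. These densities were not counted for other protein-coding genes. A summit in the gene or within 10 kb was found for 6 of 10 genes in each list, against 33.3% and 33.4% of protein-coding genes. Within 1 kb it was found for 5 of 10 in list 1 and 4 of 10 in list 2, against 22.8% in each. The shares at 10 kb and 1 kb were not counted for short genes alone. Another protein-coding gene lay closer to the summit for 7 of the 42 peaks in list 1 and 5 of the 38 in list 2, among them Bin3, Tubb5, Nrm, Ppp1r18, Mr1 and Odf1. Those peaks are counted by position alone. Their target genes were not measured.

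Fold over input is the ratio of ChIP fragments at the summit to the local background, with 1 added to both, as the authors deposited it. The median fold was 6.72 in list 1 (range 2.65 to 28.6) and 7.73 in list 2 (3.49 to 41.2), beside 6.24 and 6.83 over all peaks. A fold of 20 or more was reached by 2 of the 42 peaks in list 1 and 6 of the 38 in list 2, against 5.7% and 8.43% of all peaks. These peaks lay at Ier3 and Ier5 in list 1 and at Ier3, Ier5, Klf4 and Klf6 in list 2. Such a peak was found near 2 of 10 genes in list 1 and 4 of 10 in list 2, against 7.48% and 10.2% of protein-coding genes. Short genes were not counted alone here either. The local background under the peaks was between 1.72 and 4.67 fragments in list 1 and between 1.87 and 4.06 in list 2, so none lay in a region of very high input. The peaks rested on 9 to 103 fragments in list 1 and 9 to 153 in list 2. Intervals below are exact Poisson 95% intervals of these fragments and cover counting error of the ChIP library only.

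**Figure D3:**
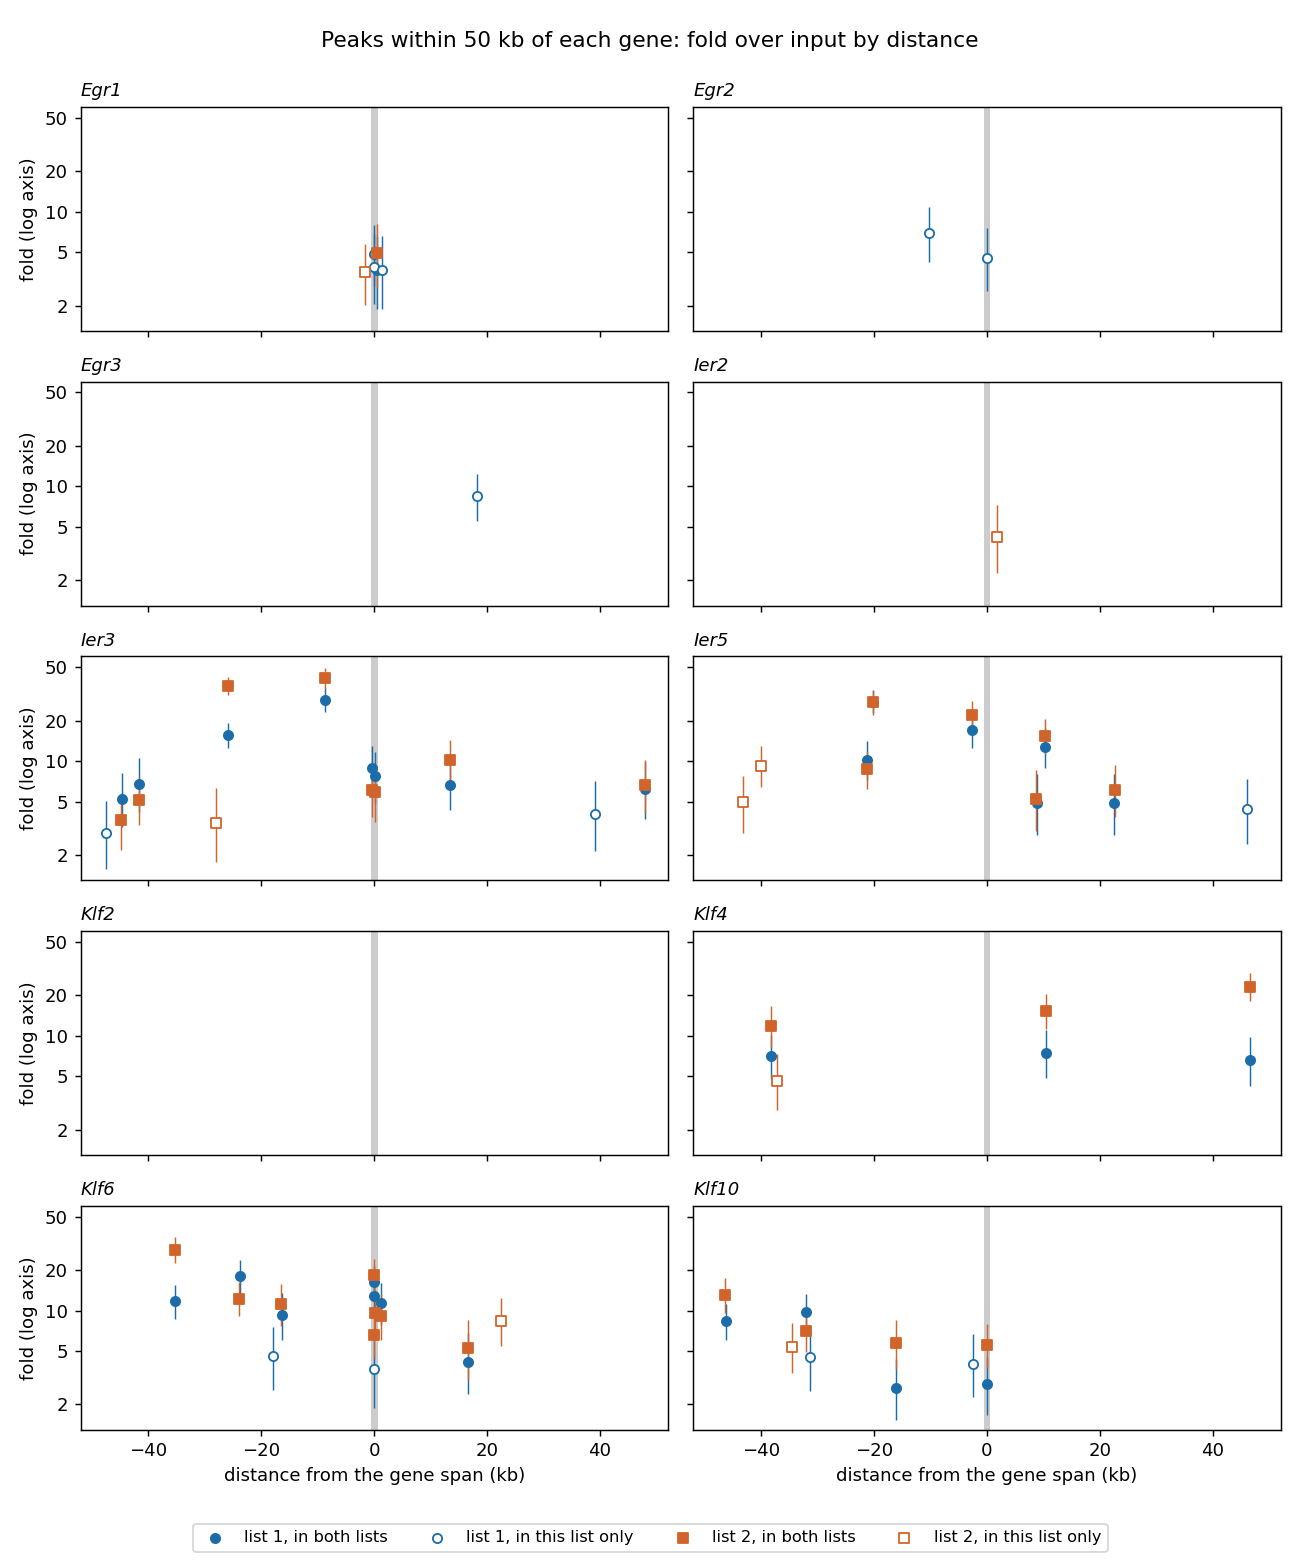
Fold over input (y axis, log axis) of each peak by its distance from the gene span in kb (x axis), with 1 panel per gene. Negative distances lie at lower chromosome coordinates, summits inside the gene are drawn at 0 (grey band), blue circles are list 1, orange squares list 2, open symbols are peaks of 1 list only, and bars are 95% Poisson intervals. The highest points lie outside the genes at Ier3, Ier5, Klf4 and Klf6, and the Egr1 points all lie within 2 kb of the gene below 5-fold.

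Among the EGR genes, which encode growth-factor-induced zinc-finger activators, no peak exceeded 8.5-fold. Egr1, on chromosome 18 at 34861207 to 34864956, had its only site called in both lists 0.50 kb beyond the higher end of the span. That site was 3.67-fold over input in list 1 (1.88 to 6.64, 9 fragments) and 4.88-fold in list 2 (2.76 to 8.11, 13 fragments), with summits at the same base. Of the other Egr1 peaks 2 lay inside the gene in list 1 (4.85-fold and 3.88-fold), 1 lay 1.34 kb beyond the higher end in list 1 (3.67-fold), and 1 lay 1.67 kb beyond the lower end in list 2 (3.53-fold). These rested on 9 to 14 fragments each, near the lowest number at which peaks were called (8).

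Egr2, known for its role in hindbrain and Schwann cell development, had a list 1 peak of 6.93-fold (4.26 to 10.7) 10.3 kb beyond the lower end of its span. A second list 1 peak, at chr10:67537249-67537503, covered part of a RefSeq promoter of the gene and was 4.55-fold over input (2.58 to 7.56, 13 fragments, −log10 q = 4.68). Its summit lay 226 bp upstream of the annotated start at 67537566. List 2 had no Egr2 peak in the window, and its nearest summit lay 57.9 kb away (3.92-fold). At Egr3, an EGR gene of neurons, muscle spindles and lymphocytes, the single peak lay 18.2 kb from the gene inside the neighbouring Bin3 and was 8.47-fold in list 1 (5.55 to 12.4).

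The 2 Egr2 promoter windows shown are the one that the list 1 peak partly covers and the next one, which lies outside the peak. They come from RefSeq (GRCm38.p6, plus strand, 250 bases before to 50 after the start), and capitals mark GGAATG and the CArG boxes.
Egr2 chr10:67537316-67537615: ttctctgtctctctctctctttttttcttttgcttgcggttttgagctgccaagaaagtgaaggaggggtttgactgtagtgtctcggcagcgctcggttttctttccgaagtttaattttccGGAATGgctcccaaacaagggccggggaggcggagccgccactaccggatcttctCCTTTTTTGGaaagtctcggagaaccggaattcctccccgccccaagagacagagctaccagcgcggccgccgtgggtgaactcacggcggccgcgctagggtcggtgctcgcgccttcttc
Egr2 chr10:67537619-67537918: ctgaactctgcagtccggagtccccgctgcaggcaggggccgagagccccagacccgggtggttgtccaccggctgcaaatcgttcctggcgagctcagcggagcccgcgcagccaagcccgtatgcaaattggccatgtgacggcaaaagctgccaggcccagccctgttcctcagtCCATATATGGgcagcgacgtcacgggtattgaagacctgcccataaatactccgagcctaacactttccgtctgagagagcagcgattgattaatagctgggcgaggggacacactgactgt
In the first window GGAATG begins 99 bp from the summit, and the CArG box CCTTTTTTGG ends on the last base of the called peak. The second window holds the CArG box CCATATATGG, beginning 72 bp before its start, and no GGAATG. Of the 10 genes 6 were matched to RefSeq promoter windows, 10 windows in all, and Egr1, Egr3, Ier2 and Klf10 were not. GGAATG or its reverse complement CATTCC was in 1 of these 10 windows, against 14.7% of all 32851 windows of this length. A CArG box on either strand was in 4 windows, all of Egr2, against 1.63% of all windows. The Egr2 windows partly overlap each other, and the box CCATATATGG was counted again in each window that holds it. By gene, a CArG box was found for 1 of the 6, against 1.81% of all genes with windows. The AP-1 letters TGANTCA, the same on both strands, were in none of the 10 windows, against 7.81% of all windows. These matches describe letters and not bound sites.

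The IER genes ranged from 1 weak peak at Ier2 to the highest folds of the 10 genes at Ier3. Ier3, encoding a stress-induced regulator of cell survival also known as IEX-1, lies on chromosome 17 at 35821713 to 35822911. Its highest fold in both lists was at chr17:35812677-35813896 (list 1 interval), 8.7 kb upstream of the start. This site was 28.6-fold over input in list 1 (23.0 to 35.2, 87 fragments) and 41.2-fold in list 2 (34.4 to 48.9, 128 fragments). It was also the widest peak of the 10 genes, 1220 bp in list 1 and 1650 bp in list 2, where the medians of all peaks were 472 and 445 bp.

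A second strong Ier3 site lay 25.9 kb upstream, at chr17:35795489-35796163. It was 15.6-fold over input in list 1 (12.5 to 19.2, 86 fragments) and 36.3-fold in list 2 (30.8 to 42.4, 153 fragments), and the intervals did not overlap. In list 2 this site had the highest −log10 q of the 10 genes (189.4) and ranked 324th of all peaks, and in list 1 it ranked 1034th. Its local background was 4.58 fragments in list 1 and 3.25 in list 2. Both fragment number and background therefore differed between the lists in the direction of the fold. Library totals are not in the lists, so these numbers were not scaled for library size.

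Closer to Ier3 the peaks were weaker and ran the other way. The site at the promoter, with summits 343 and 350 bp upstream of the start, was 8.81-fold in list 1 (5.72 to 13.0) and 6.08-fold in list 2 (3.83 to 9.23). The site just beyond the other end, 0.10 and 0.12 kb away, was 7.71-fold and 5.93-fold. For both the intervals of the lists overlapped. The promoter site covered 145 bases of the RefSeq promoter in list 1 and 144 in list 2. The window is shown because it is the only matched promoter of the 10 genes that a peak of both lists reached (plus strand, capitals mark the bases inside the list 1 peak).
Ier3 chr17:35821463-35821762: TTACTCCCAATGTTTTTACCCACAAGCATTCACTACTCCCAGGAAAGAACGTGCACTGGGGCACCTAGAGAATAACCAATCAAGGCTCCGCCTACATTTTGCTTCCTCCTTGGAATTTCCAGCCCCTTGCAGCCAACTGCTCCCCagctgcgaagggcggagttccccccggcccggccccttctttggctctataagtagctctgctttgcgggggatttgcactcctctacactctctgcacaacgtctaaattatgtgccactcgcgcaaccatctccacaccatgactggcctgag
None of the 3 motifs was found in this window. The summits lay 93 and 100 bp outside it, so the sequence under them is not shown. The remaining Ier3 sites called in both lists lay 41.7 and 44.6 kb upstream (6.80-fold and 5.25-fold in list 1, 5.16-fold and 3.65-fold in list 2) and inside Tubb5 and Ppp1r18 on the other side (6.63-fold and 6.24-fold in list 1, 10.2-fold and 6.60-fold in list 2).

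Ier5, encoding a stress-induced cofactor of heat shock factor, lies on the minus strand of chromosome 1 at 155096367 to 155099636. Its strongest site, at chr1:155075768-155076586, lay 20.2 kb beyond the 3′ end of the gene. It was 27.7-fold over input in list 1 (22.7 to 33.6, 103 fragments) and 27.4-fold in list 2 (22.1 to 33.5, 93 fragments), nearly the same in both. In list 1 its −log10 q of 116.9 was the highest of the 10 genes. The site nearest to the gene, 2.6 kb beyond the 3′ end, was 16.9-fold (12.4 to 22.5) and 21.9-fold (17.0 to 27.9). Another site 10.2 kb upstream of the start was 12.8-fold and 15.4-fold. At all 6 Ier5 sites called in both lists the intervals overlapped, and the ratio of list 2 to list 1 was between 0.85 and 1.3. No summit lay within 1 kb of the gene.

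A list 2 peak 40.0 kb beyond the 3′ end of Ier5, at chr1:155056193-155056653, was 9.26-fold over input (6.39 to 13.0, 31 fragments) and had no partner in list 1. It was the strongest peak of the 10 genes found in 1 list only. It covered the whole RefSeq promoter window of Gm51651, with its summit 144 bp upstream of that start. The window (plus strand) is shown because it is the only RefSeq window that lies wholly under a peak of these genes, and capitals mark GGAATG, which begins 154 bp from the summit.
Gm51651 chr1:155056274-155056573: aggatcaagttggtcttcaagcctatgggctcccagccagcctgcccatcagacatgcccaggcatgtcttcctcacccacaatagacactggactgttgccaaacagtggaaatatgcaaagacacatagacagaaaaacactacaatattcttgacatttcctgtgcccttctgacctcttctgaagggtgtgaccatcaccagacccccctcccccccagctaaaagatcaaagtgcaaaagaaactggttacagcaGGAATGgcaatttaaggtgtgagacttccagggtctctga
Ier2, encoding a small nuclear protein of the growth-factor response, had 1 weak peak 1.85 kb beyond the higher end of its span on chromosome 8. It was 4.19-fold over input in list 2 (2.26 to 7.22, 11 fragments). In list 1 the nearest summit to Ier2 lay 90.5 kb away.

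The KLF genes ranged from none to 9 peaks. Klf6, a KLF gene induced on tissue injury, lies on the plus strand of chromosome 13 at 5861489 to 5870393, with no other protein-coding gene within 50 kb. Inside the gene, 4.87 kb downstream of the start in list 1, a site was 16.3-fold over input in list 1 (12.1 to 21.4) and 18.5-fold in list 2 (13.9 to 24.1). Just beyond the 3′ end lay sites at 0.06 kb (12.9-fold and 9.58-fold) and 1.14 kb (11.4-fold and 9.07-fold). A list 2 peak with its summit 8.32 kb downstream of the start (6.59-fold) overlapped the first of these list 1 peaks as well. A weak list 1 peak without a partner also lay inside the gene (3.67-fold).

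Upstream of Klf6 lay 3 further sites called in both lists. The one 35.2 kb upstream, at chr13:5825951-5826702, was 11.7-fold in list 1 (8.64 to 15.5, 47 fragments) and 28.4-fold in list 2 (22.7 to 35.0, 85 fragments), and the intervals did not overlap. The one 23.8 kb upstream ran the other way, 17.99-fold in list 1 (13.4 to 23.7) and 12.2-fold in list 2 (9.03 to 16.2), with overlapping intervals. The fragment numbers there were 48 and 46, and the backgrounds 1.72 and 2.84. The site 16.4 kb upstream was 9.18-fold and 11.2-fold. By fold the strongest Klf6 site was therefore a different one in each list. In list 1, however, its interval overlapped that of the site inside the gene (16.3-fold, 12.1 to 21.4). No peak reached the Klf6 promoter window.

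Klf4, a KLF factor of pluripotent cells and of vascular smooth muscle, lies on the minus strand of chromosome 4 at 55527137 to 55532475 and had no summit within 10 kb. All 3 of its sites called in both lists were higher in list 2. The site 46.7 kb upstream of the start, at chr4:55578914-55579445, was 6.60-fold in list 1 (4.24 to 9.84, 22 fragments) and 23.1-fold in list 2 (18.05 to 29.2, 69 fragments). That was the largest ratio among the sites of the 10 genes (3.50), and the intervals did not overlap. The site 10.4 kb upstream was 7.44-fold (4.83 to 11.0) and 15.4-fold (11.2 to 20.6), again without overlap. The site 38.3 kb beyond the lower end was 7.05-fold (4.77 to 10.1) and 11.9-fold (8.27 to 16.5), with overlap.

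Klf10, a TGF-beta-inducible repressor also known as TIEG1, lies on chromosome 15 at 38291464 to 38300711. Its peaks were weak near the gene and all lay on the lower side or inside it. The site inside the gene was 2.82-fold in list 1 (1.66 to 4.54) and 5.53-fold in list 2 (3.71 to 7.96), on 15 and 27 fragments. The strongest were 32.1 kb away in list 1 (9.73-fold, 6.99 to 13.2) and 46.4 kb away in list 2 (13.0-fold, 9.52 to 17.3), the second of them closer to Odf1. Klf2, a KLF gene best known from endothelium under flow, had no summit within 50 kb. Its nearest summits on chromosome 8 lay 83.6 kb away in list 1 (4.77-fold) and 100.4 kb away in list 2 (3.49-fold).

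Sharing between the lists was counted last. In list 1, 29 of the 42 peaks had a partner in list 2, a share of 69.0% (95% Wilson interval 54.0 to 80.9), against 70.9% of all list 1 peaks. In list 2, 30 of the 38 had one, a share of 78.9% (63.7 to 88.9), against 71.4%. Peaks of 1 list only reached 8.47-fold in list 1 (Egr3) and 9.26-fold in list 2 (Ier5), above the medians of all peaks (6.24 and 6.83). By median they were weaker than shared peaks, at 4.39-fold in list 1 and 4.78-fold in list 2 against 8.35 and 9.33. All peaks showed the same order (4.73 and 4.88 against 7.58 and 8.37). The summits of 22 of 29 shared sites lay within 50 bp of each other, with a median distance of 26 bp, against 72.3% of all shared sites and a median of 25 bp.

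At the 29 shared sites the list 2 fold was higher in 19, against 61.7% of all 15015 shared sites, and the median ratio of list 2 to list 1 was 1.22 (log2 0.28), against 1.11 (log2 0.15). The list 2 fold was at least 2 times the list 1 fold at 5 of 29 sites, against 5.81% of all shared sites. These were Klf4 (46.7 and 10.4 kb), Klf6 (35.2 kb), Ier3 (25.9 kb) and Klf10 (16.1 kb). The reverse was seen at none of the 29, against 1.9%. Of the 5 sites, that of Klf10 was 2.65-fold in list 1 (14 fragments) and 5.74-fold in list 2 (22 fragments). Its list 1 peak was among the weakest called, with −log10 q = 1.61 and rank 21223 of 21285. All 5 lay over 10 kb from the gene, as did 19 of the 29 shared sites. The intervals of the lists did not overlap at 4 of the 29, all among these 5, against 8.78% of the 15013 shared sites with recovered fragments in both lists. Sites of 1 gene share a locus and are not independent, and the spread between cultures is unknown.

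**Figure D4:**
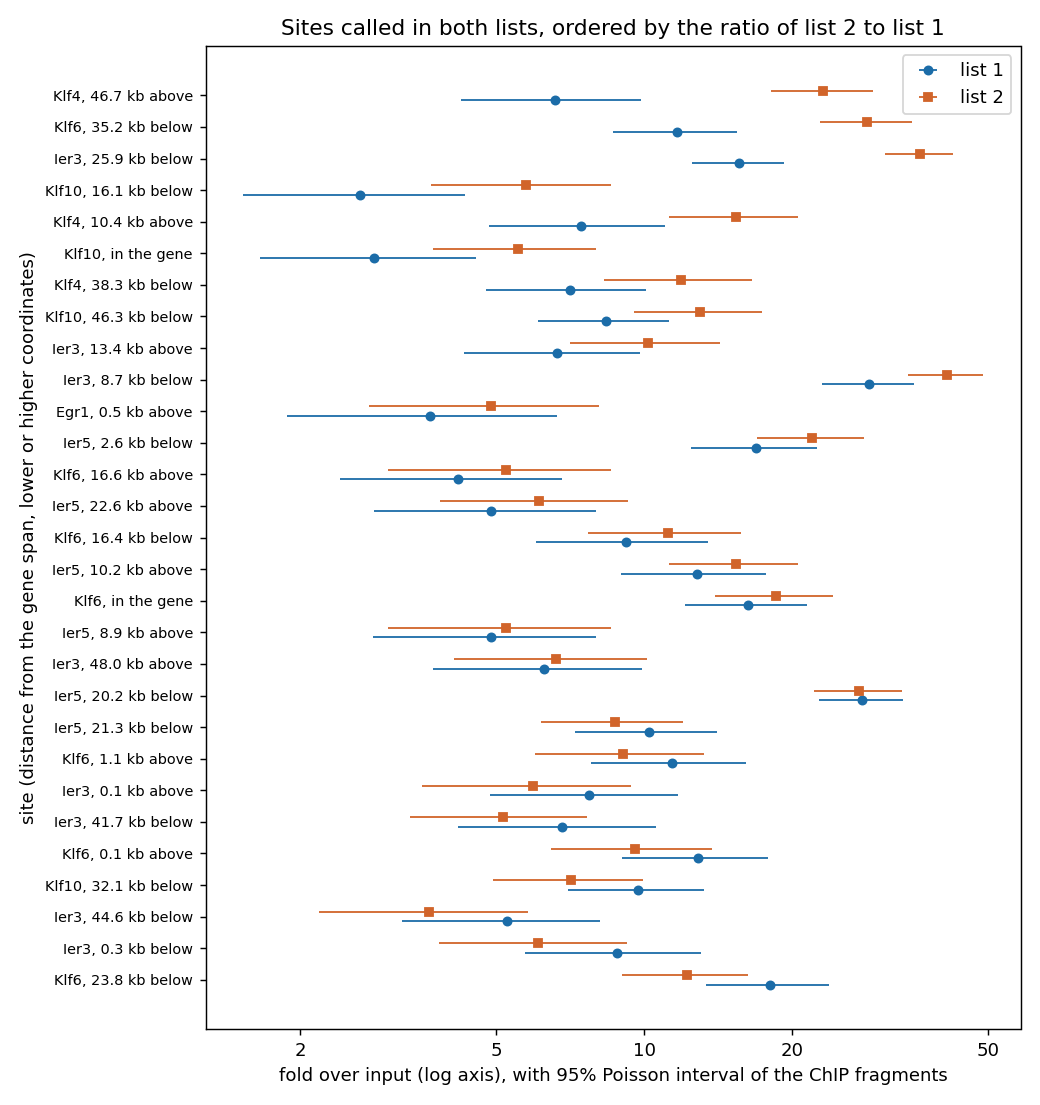
Fold over input (x axis, log axis) in list 1 (blue circles) and list 2 (orange squares) at the 29 sites called in both lists, with 95% Poisson intervals, ordered by the ratio of list 2 to list 1. Labels on the y axis give the gene and the distance of the list 1 summit from its span, below or above meaning lower or higher coordinates. The top 5 rows are the Klf4, Klf6, Ier3 and Klf10 sites at which list 2 is over 2 times list 1, and below them the intervals of the lists overlap at every site.

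Other genes of the same families and response gave a point of comparison. By the same rule 57.5% of all protein-coding genes had a peak in list 1 and 58.2% in list 2. Of 28 other immediate-early genes 27 had a summit in the span or within 50 kb in each list, all but Nr4a3, with 102 and 92 peaks and a median of 3 per gene in both. The highest folds there were at Btg2, an antiproliferative gene (42.8 and 51.6), then Arc (32.8) and Fos (30.5) in list 1, and Sgk1 (40.3) and Junb (33.1) in list 2. Of 13 other KLF genes 9 had a peak in list 1 and 8 in list 2, with medians of 2 and 1, and Klf3 (22.7-fold and 35.6-fold) was highest, followed by Klf15 (15.1) and Klf11 (14.7) in list 1 and Klf11 (24.1) and Klf7 (10.5) in list 2. Of the remaining 4 genes, Egr4, Ier5l and the EGR co-repressors Nab1 and Nab2, 3 had a peak in list 1 and 2 in list 2. Nab2 reached 23.1-fold and 56.2-fold, and Egr4 had none. A peak within these windows can also lie near other genes, and the gene lists were not tested against each other.

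The window of 50 kb was close to several peaks. Between 45 and 50 kb lay 8 peaks of 2.92-fold to 23.1-fold, at Ier3, Ier5, Klf4 and Klf10. Between 50 and 55 kb lay 4, of 4.23-fold to 16.9-fold, and the strongest of these were the same Egr1 site in both lists, 53.9 kb away (16.9-fold in list 1 and 12.9-fold in list 2). That site is stronger than any Egr1 peak counted here.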

How the data were processed

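Per the submitters' processing notes, trimming was done with Trimmomatic 0.33, alignment with Bowtie 1.1.2 and peak calling with MACS2. The sources used here give no other settings. Each deposited list gives a score per peak, a fold (the ratio of ChIP to local background at the summit), −log10 p and −log10 q, all the authors' values for single peaks. The build is named as mm39, yet 65 peaks end beyond the length of 4 chromosomes of that build (lengths from general knowledge). Coordinates were therefore read as GRCm38, with the RefSeq gene table GRCm38.p6.

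From fold and p the fragment number and background at each summit were solved with scipy 1.17.1, after a check on simulated data. The number was whole within 0.02 for every peak of the 10 genes and all but 2 peaks in each list. Library totals are not in the lists. Peaks were shared when overlapping by 1 bp, and folds were compared at mutual best overlaps. No test was made. The members and gene lists were chosen with earlier results of these data known. All members were named. Of their sites, those with the highest −log10 q, nearest to the gene, or with a fold of 20 or more were to be described, and of the other gene lists up to 3 genes by fold. The fixed marker genes of heart cell types were not used, since peaks are not expression.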

Additional observations from a re-analysis of the deposited data

How the results depend on the processing

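With windows of 10, 20 and 100 kb the 10 genes had 16, 25 and 63 peaks in list 1 and 13, 19 and 59 in list 2, against 42 and 38 with 50 kb. Peaks with −log10 q of at least 10 numbered 23 in each list, and those among the 5000 strongest of a list 13 and 11. The cut of 10 falls close to the middle value of all peaks, 9.41 for list 1 and 11.6 for list 2. The 5000 were taken from 21285 and 21218 peaks. Neither count is therefore shown to be particular to these genes. With those 5000, 4 of 10 genes had a peak in list 1 against 8 with all peaks, and 5 of 10 in list 2 against 7. The share of all protein-coding genes was not counted at this cut, so these counts stand without a comparison. Counting called intervals in place of summits left both peak counts as they were. The share of these peaks also called in the other list rose with strength. At −log10 q of at least 5 it was 89.3% in list 1 and 85.3% in list 2, and at 10 or more 91.3% in each. The share over all peaks was not counted at these cuts. Over all peaks the median −log10 q was 4.72 and 5.61 for peaks of 1 list only, against 13.5 and 16.5 for shared peaks, so the rise is not particular to these genes. Overlap of at least 50% of the shorter peak left the shares and the median ratio as they were. The share of protein-coding genes with a peak fell from 57.5% to 49.2% in list 1 and from 58.2% to 49.9% in list 2 when genes over 20 kb were left out. Counting error limits the comparison of folds, and library depth is unknown. The intervals of the lists still overlapped at the Ier3 site 8.7 kb upstream (87 and 128 fragments, ratio 1.44) and at the Klf4 site 38.3 kb away (28 and 33 fragments, ratio 1.68). Overlap of the intervals is not a test of equal folds. No paired analysis was possible because each group held 1 library and neither list is tied to a group.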

Other observations

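Several of the distant sites lay inside annotated long noncoding RNA genes. The share of all peaks inside such genes was not counted, so these positions are not shown to be particular to the 10 genes. The Ier5 sites 20.2 and 21.3 kb beyond the 3′ end lay in Gm9530, and the list 2 peaks 40.0 and 43.3 kb beyond it in Gm41980. Both Klf4 sites upstream of the start lay in Gm12506, and the one 46.7 kb away also in Gm12511. The Ier3 sites 41.7 and 44.6 kb upstream lay in 4833427F10Rik, and the Egr2 peak 10.3 kb from the gene lay in Gm32255. The strong sites upstream of Ier3 (8.7 and 25.9 kb) and of Klf6 lay in no other annotated gene.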
